A study of Mus musculus with 15 samples.

Results

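The renin-angiotensin system genes examined here were *Agt*, *Ace*, *Agtr1a*, *Agtr1b*, *Agtr2*, *Ren1*, *Mas1*, *Mme* and *Enpep*. They were chosen by name, as the precursor, enzymes and receptors of angiotensin signaling, and they are 9 of the 24982 gene symbols counted in the aortic RNA-Seq. RNA was sequenced from the whole aortas of 15 wild-type male C57BL/6 mice aged 10 months, with 5 libraries in each of 3 groups. All mice received aldosterone (200 µg/kg per day, by osmotic minipump) and salt water (0.9% NaCl and 0.2% KCl) for 7 days, here called Aldo-salt, so no library shows the aorta without it. Surgery came 2 weeks before Aldo-salt: control mice had a sham operation, orchiectomized mice lost their testes, and in the third group, here called DHT-treated mice, orchiectomized mice also carried a pellet of dihydrotestosterone (DHT), a potent androgen. The comparisons ask whether removing the testes, or giving androgen back, changed the expression of these genes during Aldo-salt.

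In this system the protease renin cuts the secreted precursor angiotensinogen (*Agt*) to angiotensin I, and angiotensin-converting enzyme (*Ace*) on the endothelial surface trims it to angiotensin II. Angiotensin II acts on the AT1 receptor, which mice carry as a pair of genes (*Agtr1a* and *Agtr1b*), to contract vessels and to drive adrenal aldosterone release. The AT2 receptor (*Agtr2*) and MAS (*Mas1*), which binds a shorter angiotensin peptide, are generally described as opposing AT1, and the membrane peptidases neprilysin (*Mme*) and aminopeptidase A (*Enpep*) cut angiotensins further.

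Angiotensin I, which contains the active peptide angiotensin II, is coded by a short stretch of *Agt*. It lies on the minus strand of chr8:124564450-124564479 (GRCm38), in exon 2 of the 5 exons of the GENCODE M21 transcript, and starts at residue 30 of the 482 of the precursor. The 30 coding bases of angiotensin I, read 5′ to 3′, are shown because every product of the pathway derives from them. Capitals mark the 24 bases that code for angiotensin II, and the lower-case rest completes angiotensin I.
angiotensin I coding sequence: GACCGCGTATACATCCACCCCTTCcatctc

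The AT1 receptor genes are close copies, which bears on how reads can be divided between them. *Agtr1a* lies at chr13:30336441-30382867 on the plus strand and *Agtr1b* at chr3:20314473-20367177 on the minus strand (GRCm38, GENCODE M21). Their coding sequences are 1077 bases long and share 978 bases, or 90.8%. The first 60 coding bases are shown 5′ to 3′, with the 7 bases that differ in capitals.
Agtr1a: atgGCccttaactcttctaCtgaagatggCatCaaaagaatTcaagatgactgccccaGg
Agtr1b: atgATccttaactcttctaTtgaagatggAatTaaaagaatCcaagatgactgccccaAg
The longest run of coding bases without a difference is 66. Over the whole transcripts, 1.53% of the 50-base windows of *Agtr1a* and 1.57% of those of *Agtr1b* occur in the other gene, and 0 windows of 100 bases do. The read length and the treatment of reads that fit both genes are not given in the sources used here, so a small part of their counts may be divided wrongly or missing.

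Depth and sample quality were as follows. Each library held 8268957 to 13816864 reads on genes, and levels are given as CPM, the count of a gene scaled to a common library size after normalization, in the order of mice 1 to 5 of a group. Library orchiectomized 2 carried lung transcripts: 10 lung epithelial genes, among them *Sftpc*, *Scgb1a1* and *Ager*, summed to 6773 CPM there against 3.9 to 37.7 CPM in the other 14 libraries. Differences from the orchiectomized group are therefore also given without this library. In the other libraries several lung genes were at 0, but 0 of the 10 were at 0 in orchiectomized 3 and 4, which summed to 17.1 and 37.7 CPM. Smooth muscle markers such as *Myh11* and *Acta2* were found in all 15 libraries. A whole aorta mixes cell types, so fewer cells of a type and less RNA per cell cannot be told apart in any value below.

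The genes fell into a wide order of levels when CPM was divided by exon length in kilobases, which allows different genes to be compared. *Ace* had a median of 72.5 CPM per kb over the 15 libraries (range 57.0 to 97.6). It was followed by *Enpep* at 7.36 (4.92 to 11.2) and *Mme* at 5.11 (3.42 to 13.1) CPM per kb. *Agtr1a* had a median of 3.19 (1.71 to 12.6), *Agtr1b* of 1.44 (0.453 to 4.07) and *Agt* of 0.872 (0.455 to 3.91) CPM per kb. *Ace* was thus the one gene whose range lay apart from that of its neighbour, and it exceeded *Enpep* in 15 of 15 libraries. The lower neighbours overlapped: *Enpep* exceeded *Mme* in 10 of 15 libraries, *Mme* exceeded *Agtr1a* in 12, *Agtr1a* exceeded *Agtr1b* in 13 and *Agtr1b* exceeded *Agt* in 12. At the bottom stood *Mas1* with a median of 0.233 and *Agtr2* with 0.0328 CPM per kb. *Ren1* had a count of 0 in every library.

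Of the 9 genes, 6 passed the filter on low counts and were tested with edgeR among 14121 genes; *Agtr2*, *Ren1* and *Mas1* did not pass it. In edgeR 0 of the 6 passed an unadjusted P value under 0.01, the threshold used by the study, or an adjusted P value under 0.05 in any comparison. Among all tested genes, 3.22% passed the unadjusted threshold in orchiectomized against control mice, 9.72% in DHT-treated against orchiectomized mice and 3.53% in DHT-treated against control mice. The adjusted threshold was passed by 0%, 4.72% and 0.262% of genes in edgeR. DESeq2 also gave 0 calls for the 6 genes at both thresholds in each comparison, where 4.46%, 12.3% and 4.95% of all genes passed the unadjusted and 0.942%, 9.24% and 1.65% the adjusted one. The limma voom fit gave 1, *Mme* in DHT-treated against control mice, at the unadjusted threshold, which 7.03% of all genes passed there. At an unadjusted P value under 0.05, which 12%, 21.2% and 11.8% of all genes passed, the 6 genes gave 0, 0 and 1 calls, the 1 being *Agt* in DHT-treated against control mice. Without library orchiectomized 2 the 6 genes gave 0 calls at an unadjusted P value under 0.01 for orchiectomy (1.79% of 14188 genes passed) and 0 for DHT relative to orchiectomized mice (8.39% passed). At an unadjusted P value under 0.05 they gave 0 calls for orchiectomy (7.47% of genes passed) and 1 for DHT (20.1% passed), which was *Agt*. In no comparison did the 5 values of one group lie entirely above or below those of the other for any of the 6 genes; groups were separated in this way for 1.51%, 6.43% and 3.58% of the tested genes.

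**Figure D1:**
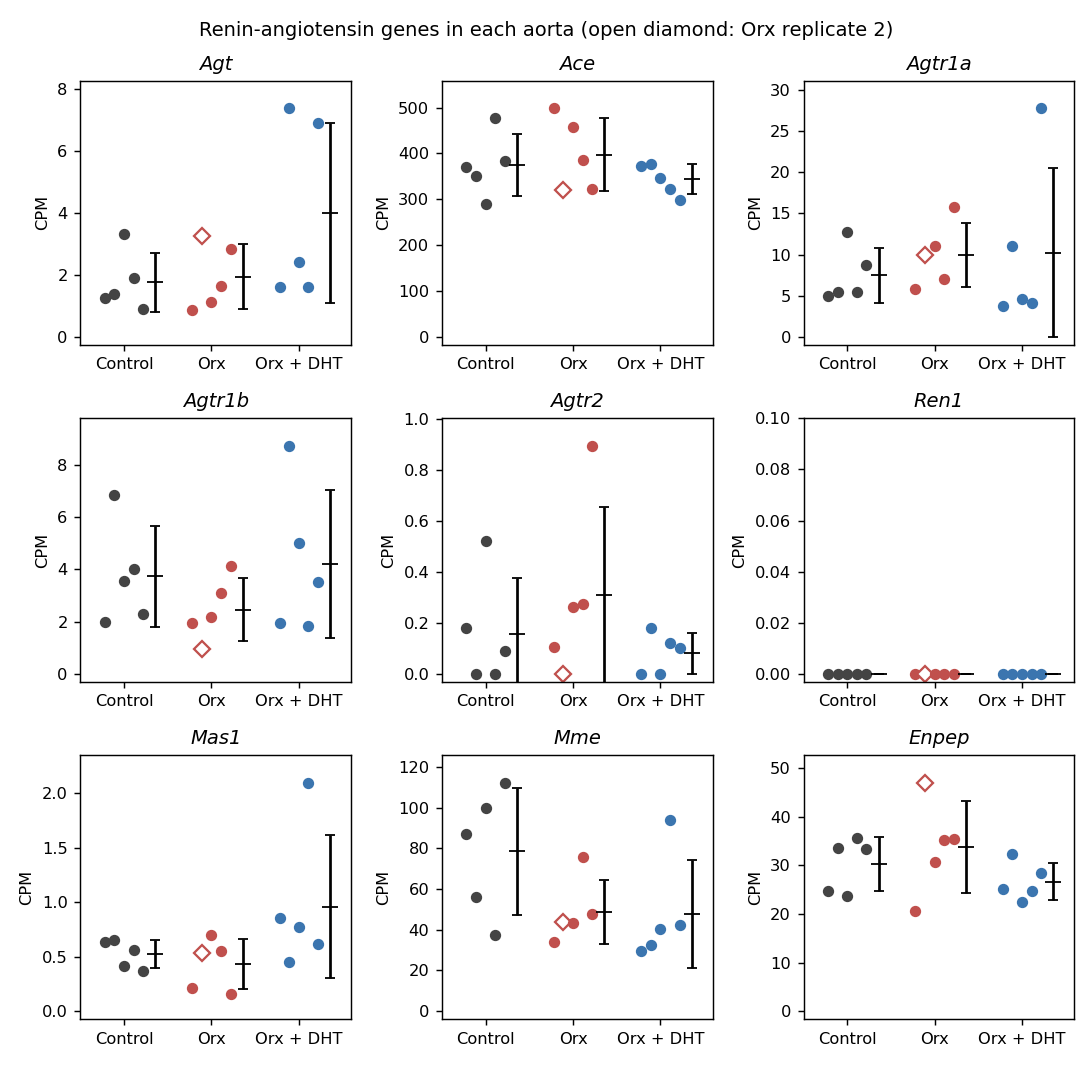
Level of each of the 9 genes in CPM (vertical axes, linear, each with its own scale) in the 5 aortas of each group, with the group mean and SD as a bar at the right of the points; bars are not drawn below the axis. The 3 groups overlap for all 9 genes: *Ace* lies between 291 and 498 CPM over all 15 aortas, and *Ren1* is at 0 throughout.

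Of the 6 tested genes, the precursor *Agt* had the largest differences in both comparisons of DHT-treated mice, though not after orchiectomy. *Agt*, at chr8:124556534-124569706 (GRCm38), stood at 1.27, 1.40, 3.34, 1.91 and 0.913 CPM in control mice 1 to 5. It was 0.861, 3.27, 1.14, 1.65 and 2.85 CPM in orchiectomized mice and 1.62, 7.39, 2.44, 1.60 and 6.93 CPM in DHT-treated mice. DHT-treated mice 2 and 5 had the highest values of all 15 aortas, while the other three lay within the range of the control mice. The means were 1.77 ± 0.948, 1.95 ± 1.06 and 4.0 ± 2.91 CPM (SD, n = 5), from counts of only 8 to 82 reads. In edgeR the log2 fold change from control to DHT-treated mice was 1.18 (SE 0.52, unadjusted P = 0.0395, adjusted P = 0.394), a fold of 2.27 with a 95% interval of 1.05 to 4.93. From orchiectomized to DHT-treated mice it was 1.03 (SE 0.52, adjusted P = 0.271 in edgeR), with an interval of -0.08 to 2.14.
Orchiectomy itself gave *Agt* a log2 fold change of 0.15 (interval -0.97 to 1.28, adjusted P = 0.931 in edgeR). Library orchiectomized 2 held the highest *Agt* value of its group. Without it the log2 difference between DHT-treated and orchiectomized mice was 1.30 (unadjusted P = 0.0324, adjusted P = 0.199 in edgeR), and that of orchiectomy was -0.11. The DHT differences also turned on single DHT-treated libraries: leaving out DHT-treated mouse 2 gave 0.68 against orchiectomized and 0.84 against control mice.
Marker lists moved with *Agt* in part. Its r with 7 *Hox* genes, homeobox genes of paralog groups 9 and 10 in a list written after the data were seen, was 0.59 (rho = 0.57, 0.53 within groups, 0.78 without library orchiectomized 2), and DHT-treated mice 2 and 5 also held the highest *Hox* sums, 78.9 and 64.1 CPM. With 9 sympathetic neuron genes, from a list also written after the data were seen, its r was 0.50 (rho = 0.41, 0.61 within groups, 0.31 without DHT-treated mice 5 and 1), and DHT-treated mice 5 and 2 held the highest neuron sums of their group, 1399 and 429 CPM. The liver makes most circulating angiotensinogen, and with 5 liver genes *Agt* had an r of 0.28 and a rho of 0.60 (permutation P = 0.296 and 0.0205, adjusted P = 0.655 and 0.194), with an r of 0.71 without orchiectomized mice 5 and 4. The liver sum of 157 to 413 CPM was mostly *Cyp2e1*, and the albumin gene *Alb* had 293 counts in orchiectomized mouse 5, 59 in mouse 4 and 0 to 9 in the other 13 libraries. The part of these tissues in the *Agt* differences was not tested.

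The renin gene *Ren1* (chr1:133350510-133360325) was listed at 0 counts in all 15 libraries, so no fold change can be given. The duplicate renin gene *Ren2*, which some mouse strains carry and C57BL/6 mice do not, is listed in the row next to it and was also at 0 in all 15. A count of 0 allows up to 3 counts, or 0.206 to 0.385 CPM in these libraries. Reads that fit both genes could have been left in the entry for reads assigned to several genes, which held 1.34% to 1.97% of the counted reads, so renin transcripts were not detectable with these counts and are not shown to be absent. Markers of tissues that lie near the aorta and matter to this pathway were low: 5 kidney genes summed to 0.874 to 4.42 CPM and 6 genes of the adrenal cortex, among them *Cyp11b2* (aldosterone synthase), to 4.59 to 8.92 CPM per library.

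*Ace*, which makes angiotensin II, was the most strongly expressed gene of the 9 and the most precisely measured. It lies at chr11:105967945-105989964 (GRCm38). The control mice had 370, 352, 291, 477 and 384 CPM, the orchiectomized mice 498, 320, 458, 386 and 323 CPM, and the DHT-treated mice 373, 377, 347, 323 and 299 CPM. The 3 groups overlapped almost completely, and the DHT-treated mice spread least. Mean levels were 375 ± 67.3, 397 ± 79.7 and 344 ± 33.1 CPM (SD, n = 5). The log2 fold change was 0.08 after orchiectomy (SE 0.15, interval -0.24 to 0.40, adjusted P = 0.858 in edgeR). With DHT it was -0.21 relative to orchiectomized mice (SE 0.15, interval -0.53 to 0.11, adjusted P = 0.452 in edgeR) and -0.12 relative to control mice (interval -0.45 to 0.20, adjusted P = 0.769). For *Ace* a change beyond these bounds in either direction lies outside the 95% intervals, while smaller changes were not resolved with 5 mice per group. *Ace* is made by endothelial cells, and 6 endothelial markers summed to 738 to 1115 CPM in control, 824 to 1304 in orchiectomized and 619 to 823 in DHT-treated mice. The highest endothelial sum was that of library orchiectomized 2, whose *Ace* level of 320 CPM was the lowest of its group. The part of endothelial content in the *Ace* levels was not tested. Without that library the log2 fold changes were 0.14 after orchiectomy and -0.26 with DHT.

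Both AT1 receptor genes varied more between mice of a group than between groups. *Agtr1a*, the main AT1 gene of rodent vessels, measured 4.98, 5.43, 12.7, 5.45 and 8.76 CPM in the control mice. The orchiectomized mice had 5.81, 10.0, 11, 7.01 and 15.8 CPM and the DHT-treated mice 3.76, 11, 4.61, 4.07 and 27.7 CPM. DHT-treated mouse 5 had the highest level of all aortas and DHT-treated mouse 1 the lowest, so 1 group spanned the whole range. Group means were 7.47 ± 3.30, 9.93 ± 3.91 and 10.2 ± 10.2 CPM (SD, n = 5). The log2 fold changes were 0.41 (interval -0.68 to 1.51) after orchiectomy, 0.05 (-1.04 to 1.13) with DHT relative to orchiectomized mice and 0.46 (-0.63 to 1.55) relative to control mice, with adjusted P values of 0.777, 0.975 and 0.747 in edgeR. Leaving out library orchiectomized 2 gave 0.41 after orchiectomy and 0.06 with DHT relative to orchiectomized mice. Leaving out DHT-treated mouse 5 turned the sign of both DHT differences, to -0.72 and -0.33. Differences of up to 1 on the log2 scale in either direction thus lie within the intervals of the DHT comparison with orchiectomized mice.

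*Agtr1b* was 1.99, 6.84, 3.55, 4.04 and 2.28 CPM in control mice, 1.94, 0.973, 2.19, 3.09 and 4.15 CPM in orchiectomized mice and 1.97, 8.74, 5.0, 1.85 and 3.52 CPM in DHT-treated mice. The lowest value belonged to library orchiectomized 2 and the highest to DHT-treated mouse 2. Means were 3.74 ± 1.93, 2.47 ± 1.21 and 4.21 ± 2.84 CPM (SD, n = 5). The log2 fold change after orchiectomy was -0.59 (SE 0.48, adjusted P = 0.628 in edgeR) and became -0.39 without library orchiectomized 2. With DHT it was 0.77 relative to orchiectomized mice (SE 0.48, interval -0.26 to 1.79, adjusted P = 0.382 in edgeR) and 0.58 without that library, but 0.31 without DHT-treated mouse 2. Relative to control mice it was 0.18 (adjusted P = 0.911 in edgeR), and -0.28 without DHT-treated mouse 2.

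The receptors *Agtr2* and *Mas1* were close to the limit of detection. *Agtr2* (chrX:21484544-21489164) had counts of 2, 0, 5, 0 and 1 in control mice, 1, 0, 3, 4 and 11 in orchiectomized mice and 0, 2, 0, 1 and 1 in DHT-treated mice. Orchiectomized mouse 5 held 11 of the 19 counts of its group. On the scale of log2(CPM + 0.5), which understates changes of low genes, the difference of DHT-treated from orchiectomized mice was -0.39 (P = 0.167, exact permutation test, two-sided). It was -0.54 without library orchiectomized 2, which had 0 counts (exact permutation P = 0.0317, unadjusted), and the difference after orchiectomy was 0.41 (P = 0.246). *Mas1* (chr17:12841079-12868143) had counts of 7, 7, 4, 8 and 4 in control, 2, 6, 8, 8 and 2 in orchiectomized and 10, 5, 6, 17 and 6 in DHT-treated mice. DHT-treated mouse 4 stood highest at 2.10 CPM, and the other DHT-treated mice lay between 0.450 and 0.855 CPM, against 0.365 to 0.656 CPM in control mice. The *Mas1* difference between DHT-treated and orchiectomized mice was 0.59 on the same scale (P = 0.0794, exact permutation test), and that between DHT-treated and control mice was 0.42 (exact test, P = 0.111). *Mas1* differed by 0.64 between DHT-treated and orchiectomized mice and by -0.22 after orchiectomy when library orchiectomized 2 was left out (exact permutation P = 0.103 and 0.349). With 5 mice against 5 the smallest P value such an exact test can give is 0.0079. The other comparisons of both genes had exact permutation P values of 0.389 to 0.651.
On the opposite strand *Mas1* is overlapped by *Airn*, which was listed with 32 to 99 counts per library. Whether the counting used strand is not given in the sources used here, so *Mas1* reads are uncertain. An antisense gene also overlaps *Ace*.

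**Figure D2:**
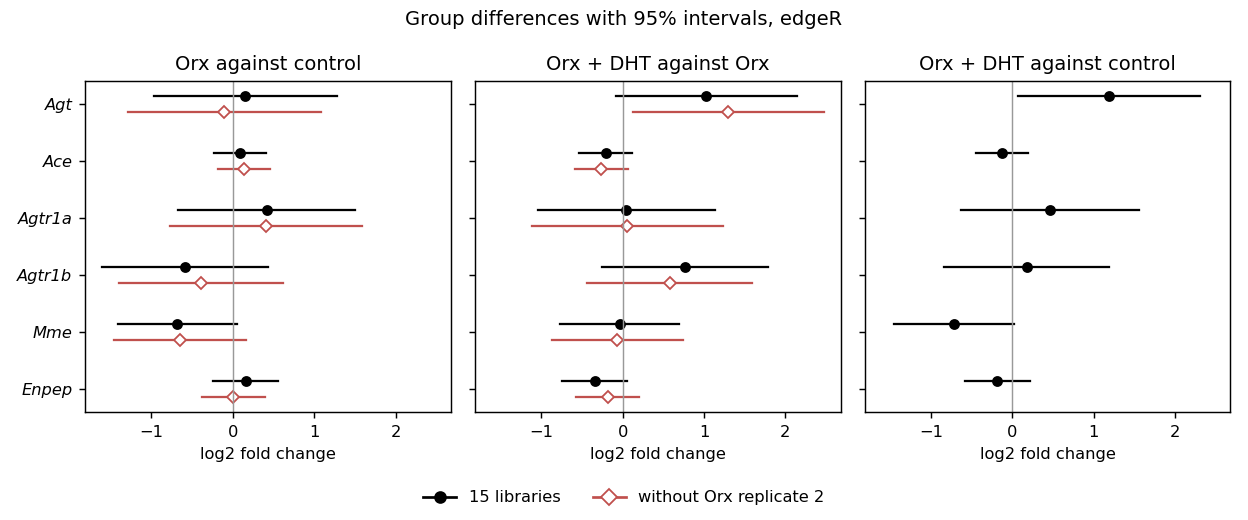
The log2 fold change (horizontal axes) of the 6 tested genes in each comparison with its 95% interval from edgeR, from all 15 libraries (filled circles) and without library orchiectomized 2 (open diamonds, drawn for both comparisons with orchiectomized mice). Narrow intervals belong to *Ace* and *Enpep* (SE 0.15 and 0.19), wide ones to *Agt* and *Agtr1a* (SE up to 0.53 from all libraries and 0.55 without library orchiectomized 2), and the *Agt* interval of DHT-treated against control mice lies above 0.

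*Mme* had the largest difference between orchiectomized and control mice among the 6 tested genes. Neprilysin, its product, degrades natriuretic peptides as well as angiotensin I. *Mme* (chr3:63241537-63386030) was 86.9, 56.0, 99.6, 37.5 and 112 CPM in control mice. The orchiectomized mice had 33.9, 43.8, 43.1, 75.5 and 47.6 CPM and the DHT-treated mice 29.3, 32.5, 40.3, 94.0 and 42.4 CPM. Control mice 1, 3 and 5 exceeded all orchiectomized mice, but control mouse 4 lay below 4 of the 5. Means were 78.4 ± 31.0, 48.8 ± 15.8 and 47.7 ± 26.5 CPM (SD, n = 5). Relative to control mice the log2 fold change was -0.68 in orchiectomized mice (SE 0.34, unadjusted P = 0.0660, adjusted P = 0.442 in edgeR) and -0.72 in DHT-treated mice (SE 0.35, unadjusted P = 0.0546, adjusted P = 0.434). Between DHT-treated and orchiectomized mice it was -0.04 (interval -0.77 to 0.70). Without library orchiectomized 2 the difference after orchiectomy was -0.65 and that with DHT relative to orchiectomized mice was -0.07. Without DHT-treated mouse 4, whose 94.0 CPM stood apart from its group, the difference from control mice was -1.13 with an unadjusted P value of 0.00223 in edgeR.

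*Enpep*, whose product aminopeptidase A removes the first residue of angiotensin II, showed small differences. The values were 24.7, 33.6, 23.8, 35.7 and 33.4 CPM in control mice, 20.6, 47.0, 30.8, 35.1 and 35.4 CPM in orchiectomized mice and 25.2, 32.3, 22.4, 24.8 and 28.3 CPM in DHT-treated mice. Library orchiectomized 2 had the highest value of all, and orchiectomized mouse 1 the lowest. Its means were 30.2 ± 5.56, 33.8 ± 9.52 and 26.6 ± 3.82 CPM (SD, n = 5). The log2 fold change was 0.16 after orchiectomy and -0.34 with DHT relative to orchiectomized mice (SE 0.19 each, adjusted P = 0.763 and 0.310 in edgeR). Without library orchiectomized 2 these became 0.0037 and -0.18.

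The other genes of the pathway were taken from a list of 20, of which 14 passed the filter. Among those that did not were *Ren2*, *Ctsg*, *Klk1*, *Mrgprd* and *Cltrn*. Of the 14 genes, 1 was higher after orchiectomy at an unadjusted P value under 0.01 (*Prcp*), as were 2.08% of all tested genes. With DHT 4 were lower than in orchiectomized mice (*Anpep*, *Prcp*, *Atp6ap2* and *Cpa3*), as were 7.27% of all genes, and 1 was lower than in control mice (*Anpep*), as were 2.01%. At an adjusted P value under 0.05 the calls were *Anpep* and *Prcp*, both lower with DHT than in orchiectomized mice, as were 3.8% of all genes. With only those groups in the fit *Anpep* missed that threshold (adjusted P = 0.0502 in edgeR) and *Prcp* passed it (0.0372). *Cpa3* missed it in the main fit (adjusted P = 0.0882 in edgeR) but passed it with DESeq2 (adjusted P = 0.0315), as did 9.24% of all genes. It also passed in edgeR without control mouse 3 (adjusted P = 0.0478), as did 4.39% of all genes. The median log2 fold changes of the 14 genes were 0.20, -0.17 and -0.16 in the 3 comparisons, against 0.037, -0.022 and -0.0029 over all tested genes. Without library orchiectomized 2 the calls at an unadjusted P value under 0.01 were 0 after orchiectomy and 3 with DHT relative to orchiectomized mice, against 1.79% and 8.39% of all genes, and the medians were 0.16 and -0.13, against 0.012 and 0.0073 over all genes. The comparisons share groups, so a high orchiectomized group alone gives a gene opposite signs in the first pair.

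*Anpep* encodes aminopeptidase N, which trims angiotensin III. It measured 43.5, 43.5, 49.7, 51.6 and 46.9 CPM in control mice, 41.4, 86.2, 69.2, 70.7 and 48.8 CPM in orchiectomized mice and 31.0, 40.8, 33.6, 30.6 and 28.1 CPM in DHT-treated mice. All DHT-treated mice lay below all orchiectomized and all control mice. The log2 fold change with DHT was -0.95 relative to orchiectomized mice (SE 0.17, adjusted P = 0.0107 in edgeR) and -0.80 without library orchiectomized 2 (adjusted P = 0.0222), and relative to control mice it was -0.52 (unadjusted P = 0.00777, adjusted P = 0.266).
*Prcp*, a lysosomal carboxypeptidase that can cut the last residue of angiotensin II, followed the same order. Its values were 22.5, 34.5, 29.5, 36.2 and 32.5 CPM in control mice, 39.1, 51.7, 44.7, 38.3 and 38.0 CPM in orchiectomized mice and 27.0, 30, 27.8, 22.7 and 23.5 CPM in DHT-treated mice. The orchiectomized mice lay above both other groups without overlap. With DHT the log2 fold change was -0.69 (SE 0.13, adjusted P = 0.0153 in edgeR) and -0.60 without library orchiectomized 2 (adjusted P = 0.0313). After orchiectomy it was 0.45 (unadjusted P = 0.00434, adjusted P = 0.285 in edgeR) and 0.35 without that library (unadjusted P = 0.0164), which no longer passed. Several marker sums also differed between the groups. The sum of 4 mesothelial genes such as *Upk3b* was 39.0 to 147 CPM in orchiectomized and 5.64 to 18.3 CPM in DHT-treated mice, and that of the 6 endothelial genes was 824 to 1304 and 619 to 823 CPM, in both cases without overlap. The sum of 6 fibroblast genes such as *Pi16* was 2786 to 4134 and 1862 to 2992 CPM. The sum of 6 smooth muscle genes lay the other way, at 10327 to 20473 CPM in orchiectomized and 19668 to 24499 CPM in DHT-treated mice, with overlap. The sum of 6 T and B cell genes was 112, 52.7 and 56.0 CPM in orchiectomized mice 2, 3 and 4, which had the highest *Anpep*, against 5.60 and 12.5 CPM in mice 1 and 5 and 1.88 to 9.50 CPM in DHT-treated mice. The sum of 5 neutrophil genes, of which 2 passed the filter, was 0.562 to 2.05 CPM in control, 4.47 to 28.5 CPM in orchiectomized and 1.80 to 11.3 CPM in DHT-treated mice, so that the first pair of groups did not overlap. The part of these cell types in the *Anpep* and *Prcp* results was not tested.

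*Atp6ap2*, the prorenin receptor and a proton pump subunit, was lower with DHT than in orchiectomized mice by a small step, -0.31 on the log2 scale (unadjusted P = 0.00692, adjusted P = 0.0863 in edgeR), with ranges of 59.4 to 83.2 and 83.7 to 102 CPM. Without library orchiectomized 2 the difference was also -0.31, with an unadjusted P value of 0.0118. In edgeR *Atp6ap2* also missed 0.01 with RLE size factors (0.0121), no filter beyond 1 count (0.0175), only the groups compared (0.0214) and the replicate block (0.0107). It passed with DESeq2 (0.00557), limma voom (0.00267) and, in edgeR, a minimum of 10 counts in each library (0.00713). *Cpa3* missed 0.01 with limma voom (unadjusted P = 0.0145). The mast cell carboxypeptidase *Cpa3* differed by -1.40 (SE 0.45, adjusted P = 0.0882 in edgeR; -1.48 without library orchiectomized 2), from 13.7 to 40.8 CPM in orchiectomized to 4.62 to 12.5 CPM in DHT-treated mice. The mast cell proteases *Cma1* and *Mcpt4*, of the chymase family that can form angiotensin II without ACE, had log2 fold changes of -1.19 and -1.13 in that comparison and missed the threshold (unadjusted P = 0.0290 and 0.0324 in edgeR), and of -1.18 and -1.15 without library orchiectomized 2. Orchiectomized and DHT-treated mice did not overlap for 6 of the 14 pathway genes, which were these 3 mast cell genes, *Atp6ap2*, *Anpep* and *Prcp*, as for 6.43% of all tested genes. The 3 proteases belong to a list of 6 mast cell genes that summed to 113 to 255 CPM in orchiectomized, 45.4 to 122 in DHT-treated and 38.7 to 173 in control mice. The share of mast cells in these differences was not tested.

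None of 10 genes for proteins that act on angiotensin receptors (among them *Agtrap*, *Rgs2*, *Arrb1* and *Grk5*) passed an unadjusted P value under 0.01 in any comparison in edgeR, nor did the 4 steroid receptor genes. An unadjusted P value under 0.05, which 12%, 21.2% and 11.8% of all genes passed, was reached by 2, 2 and 1 of the 10 and by 0 of the 4 in the 3 comparisons. With library orchiectomized 2 left out it was reached by 1 of the 10 and 1 of the 4 in each comparison with orchiectomized mice, against 7.47% and 20.1% of all genes; the latter were *Esr1* after orchiectomy (0.36, unadjusted P = 0.0279, adjusted P = 0.647 in edgeR) and *Nr3c1* with DHT (-0.36, unadjusted P = 0.0216, adjusted P = 0.170). The mineralocorticoid receptor gene *Nr3c2*, whose product binds aldosterone, had log2 fold changes of 0.08 after orchiectomy and -0.20 with DHT relative to orchiectomized mice (adjusted P = 0.866 and 0.480 in edgeR), and 0.10 and -0.22 without library orchiectomized 2.

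**Figure D3:**
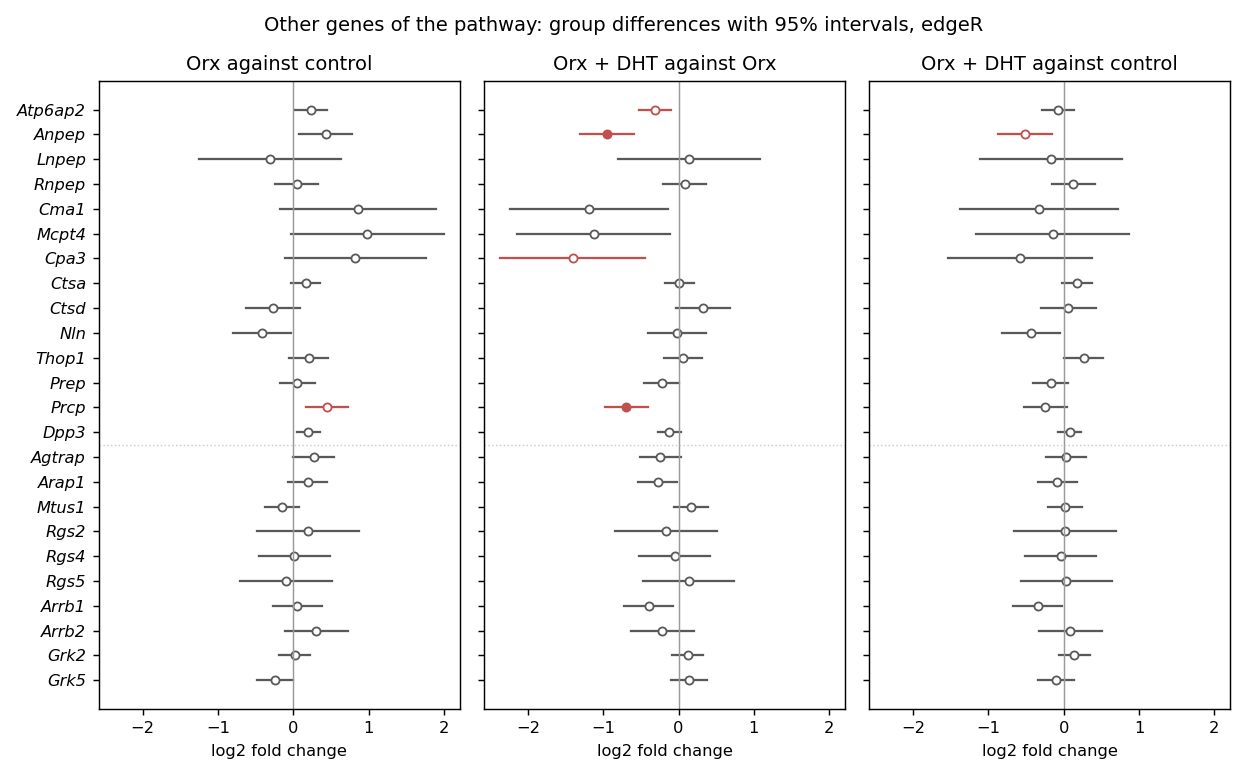
The log2 fold change (horizontal axes) with its 95% interval for the tested genes of the wider pathway, in 2 blocks: 14 other renin-angiotensin genes and 10 genes for proteins that act on angiotensin receptors. Red marks an unadjusted P value under 0.01 and a filled red circle an adjusted P value under 0.05, reached by *Anpep* (-0.95) and *Prcp* (-0.69) with DHT against orchiectomized mice.

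Because the members varied within groups, the genes most like each were sought by Pearson correlation of log2 CPM over the 15 libraries, among 14120 other genes. Among the genes most like *Agtr1a* was *Vat1l* (r = 0.93). *Agtr1b* was most like *Hoxa10* (0.93), a homeobox gene expressed in the posterior body, and *P2rx1* (0.91), and *Mme* most like *Acad11* (0.96) and *Car13* (0.96). *Ace* was closest to *Ccpg1* (0.90) and *Ccdc80* (0.87), *Enpep* to *Dna2* (0.90) and *F2rl1* (0.87), and *Agt* to *Fcgr4* (0.82) and *Lmtk3* (0.81). These are the highest of many correlations and are given without a test. Without library orchiectomized 2, *Hoxa10* remained the closest to *Agtr1b* and *Ccpg1* to *Ace*, *Tmem255a* (0.94) was among the most like *Agtr1a*, and the closest to *Agt* became *Tmeff2* (0.91), to *Mme* *Aco1* (0.98) and to *Enpep* *Mmrn1* (0.89).

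The levels of the members were then set beside the mean log2 level of marker lists. Of 84 pairs of a gene and one of 14 cell type lists, 1 had an adjusted P value under 0.05 by Pearson correlation and 0 by Spearman correlation (permutation tests with 100000 resamples, adjusted over the 84 pairs). It was *Mme* with 6 adipocyte genes such as *Adipoq*, *Plin1* and *Lep* (r = 0.84, permutation P = 0.00015, adjusted P = 0.0126; rho = 0.76, permutation P = 0.00133, adjusted P = 0.112). The correlation was 0.85 within groups, 0.84 without library orchiectomized 2 and 0.83 without control mouse 5 and orchiectomized mouse 3, the libraries farthest from the median. With 4 brown fat genes such as *Ucp1* the r of *Mme* was 0.75 (adjusted P = 0.0592, rho = 0.65, adjusted P = 0.176, permutation tests). The adipocyte genes summed to 1542 to 4188 CPM in control, 1617 to 3029 in orchiectomized and 1877 to 3769 in DHT-treated mice, and the part of adipocyte content in the group differences of *Mme* was not tested. *Ace* had an r of 0.62 with the fibroblast list (adjusted P = 0.191; rho = 0.65, adjusted P = 0.176, permutation tests) and of -0.36 with the endothelial list (rho = -0.35, adjusted P = 0.491 and 0.508, permutation tests), which was -0.67 within groups and -0.04 without orchiectomized mouse 2 and control mouse 3.

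A pair of further lists was written after the most similar genes had been seen, and so has no test. The level of *Agtr1a* followed 9 sympathetic neuron genes, among them *Th* and *Dbh*, which make noradrenaline (r = 0.85, rho = 0.83, 0.84 within groups, 0.76 without DHT-treated mice 5 and 1). Those genes summed to 154 to 659 CPM in control, 126 to 636 in orchiectomized and 148 to 1399 CPM in DHT-treated mice, with the highest sum in DHT-treated mouse 5, which also held the highest *Agtr1a*. The level of *Agtr1b* followed 7 *Hox* genes of paralog groups 9 and 10 (r = 0.90, rho = 0.85, 0.90 within groups, 0.81 without DHT-treated mouse 2 and orchiectomized mouse 2). Their sum was highest in DHT-treated mouse 2 (78.9 CPM) and lowest in orchiectomized mouse 2 (18.1 CPM), the same libraries that held the highest and lowest *Agtr1b*. *Hox* genes of these groups mark posterior segments of the body. Whether nerve tissue, or the length of distal aorta in each sample, bears on the receptor levels was not tested.

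**Figure D4:**
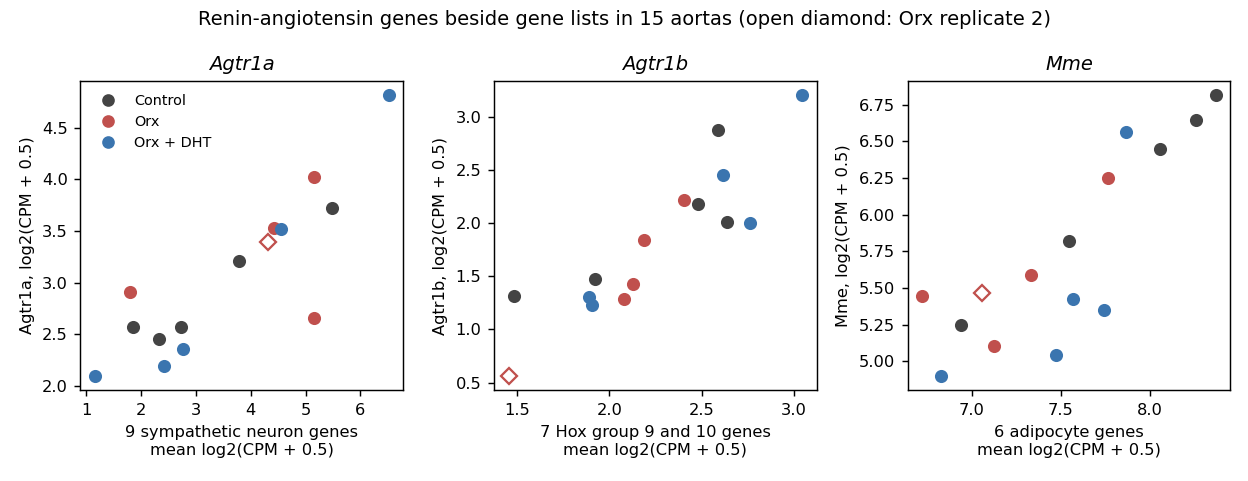
Each point is 1 of the 15 aortas; the vertical axes give the level of *Agtr1a*, *Agtr1b* and *Mme* as log2(CPM + 0.5), and the horizontal axes the mean log2(CPM + 0.5) of 9 sympathetic neuron, 7 *Hox* and 6 adipocyte genes. Points of the 3 groups are mixed along each trend, with r of 0.85, 0.90 and 0.84 (members on the log2 CPM scale of the text).

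The promoters were searched for the androgen response element, since the groups differ in androgen. RefSeq promoter sequences of GRCm38.p6, of up to 300 bases around each transcription start, were found for 8 of the 9 genes, as 11 promoters. Searched on both strands, the core hexamer AGAACA occurred in 0 of the 11, and in 19.0% of 32851 mouse promoters. The full element, which is this hexamer, a spacer of any 3 bases and the reverse complement of the hexamer, occurred in 0 of the 11 and in 3 of all promoters. The absence of a match says only that these letters are not in these windows. No promoter was listed for *Agtr1a*.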

How the data were processed

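Whole-aorta RNA of 15 mice was sequenced as poly(A)-enriched libraries, 1 aorta per library. The authors' deposited files hold unnormalized counts of reads for each gene symbol, and entries for reads assigned to no gene (6.26% to 14.4%) or to several genes (1.34% to 1.97%), which were left out. The submitters' processing notes name STAR, Cufflinks, DESeq2 and mm10 without roles; the counting program and annotation are not given in the sources used here. Groups and replicate numbers came from the sample labels.

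The test was edgeR 4.0.16 (R 4.3.3): filterByExpr (minimum count 10, minimum total 15), TMM normalization and a quasi-likelihood fit of 3 groups to all 15 libraries, with no covariate. P values were adjusted by Benjamini-Hochberg over the 14121 tested genes. Intervals are 95%, from the quasi-likelihood standard error. CPM used TMM library sizes, and log2 CPM for correlations a prior count of 3. *Agtr2* and *Mas1* were compared on log2(CPM + 0.5) by exact permutation tests. The fit was tested on simulated data for DHT-treated against control mice only. True log2 differences of 1 and 2 passed an unadjusted P value under 0.01 for 85% and 92.8% of the changed genes. Smaller differences and the comparisons with orchiectomized mice were not simulated. P values of group comparisons set a difference against the spread between mice. Those of the correlations came from shuffling all 15 libraries without regard to group.

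The members, the lists and the tests were chosen with earlier results of these data known. Named genes were the 9 members, pathway genes with an unadjusted P value under 0.01, the 2 genes most correlated with each member, and markers. *Cma1*, *Mcpt4*, *Nr3c2*, *Esr1*, *Nr3c1* and the low or receptor-protein genes of the list were named in addition, and a few genes are left out here. The sympathetic neuron and *Hox* lists, the likeness fits, the tests of *Agtr2* and *Mas1* without library orchiectomized 2 and the settings for the other pathway genes came after seeing the data.

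Alternatives were RLE size factors, DESeq2 1.42.0, no filter beyond 1 count, a minimum of 10 counts in each library, only the groups compared, the replicate number as a block, limma 3.58.1 voom with quality weights, a pseudocount of 0.1, and leaving out each library. Sequences and positions are from GENCODE M21 (GRCm38, the build of mm10), and promoters from RefSeq. Gene lengths are the union of exons. Figures were drawn with Python 3.11.15 and matplotlib 3.10.9.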

Additional observations from a re-analysis of the deposited data

Results flagged for a closer look

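In each group the CPM of the 9 genes was checked for a library that stood apart from the others of its group, with Dixon's ratio of gap to range. Of 24 groups of 5 with values above 0, 2 were past the 95% critical value, where chance gives about 1 in 20. *Mas1* was 2.10 CPM in DHT-treated mouse 4, and the gap to the next library was 0.754 of the range of the group. *Mme* was 94.0 CPM in the same mouse, with a gap of 0.798 of the range. DHT-treated mouse 4 also had the highest sum of adipocyte genes (3769 CPM) and of brown fat genes (4039 CPM) among the DHT-treated mice. The library of this mouse had 8561301 reads on genes, and 14.4% of its reads were assigned to no gene. In the other libraries that share was 6.26% to 10.4%. The part of adipose tissue or of library quality in these values was not tested.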

How the results depend on the processing

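Of 393 recalculated fold changes of the 6 tested genes, 371 kept their direction and their side of an unadjusted P value under 0.01, 20 changed sign and 2 newly passed it. The sign changes fell on 6 of the 18 differences. With all genes of at least 1 count, *Mme* with DHT relative to orchiectomized mice was 0.00033. With the replicate number as a block, *Agt* after orchiectomy was -0.050 and *Agtr1a* with DHT relative to orchiectomized mice was -0.20; the block moved no count of calls among the 6 or the 14 genes by over 1.5 times. Over all genes it did: the calls fell from 454 to 285 after orchiectomy at an unadjusted P value under 0.01, and at an adjusted P value under 0.05 from 666 to 392 with DHT relative to orchiectomized mice and from 37 to 9 relative to control mice. Deviations of same-numbered libraries from their group means had correlations of -0.288 to 0.167, -0.466 to 0.463 and -0.267 to 0.255 in the comparisons in turn. These were over 0.1 in 1, 2 and 2 of 5 pairs, and best with its own number in 0, 1 and 0 of 5. What the numbers stand for is not given in the sources used here, so whether they pair the mice is unknown. With limma voom, *Agtr1a* with DHT relative to orchiectomized mice was -0.42 and *Mme* with DHT relative to control mice was -0.97 (unadjusted P = 0.00486), which gave 1 call among the 6 genes.

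Over fits that each left out 1 library, the log2 fold change ranged from -0.11 to 0.47 for *Agt* and -0.035 to 0.19 for *Ace* after orchiectomy. With DHT relative to orchiectomized mice it ranged from -0.72 to 0.28 for *Agtr1a* and -0.42 to 0.21 for *Mme*, and relative to control mice from -0.33 to 0.72 for *Agtr1a* and -0.28 to 0.51 for *Agtr1b*. The calls at an unadjusted P value under 0.01 in DHT-treated against control mice ranged from 0 to 1 among the 6 genes, where 1.99% to 4.80% of all genes passed. Among the 14 other renin-angiotensin genes they ranged from 0 to 2 after orchiectomy (1.77% to 5.02% of all genes), 2 to 6 with DHT relative to orchiectomized mice (7.06% to 11.1%) and 0 to 2 relative to control mice (1.99% to 4.80%). After orchiectomy those 14 genes gave 2 calls with DESeq2, 3 with limma voom and 0 with only the groups compared, where 4.46%, 3.26% and 2.14% of all genes passed in the same fits. In DHT-treated against control mice limma voom gave 0 (7.03% of all genes passed), and with only the groups compared the adjusted calls in DHT-treated against orchiectomized mice fell to 1 (1.21% of all genes), *Anpep* being lost (adjusted P = 0.0502 in edgeR) and *Prcp* kept (0.0372). The causes were not tested.

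A minimum of 10 counts in every library left no value for *Agt*. In an edgeR fit of all genes, *Mas1* differed by 1.15 (unadjusted P = 0.0323, adjusted P = 0.202) and *Agtr2* by -1.76 (adjusted P = 0.386) between DHT-treated and orchiectomized mice. A pseudocount of 0.1 kept the direction of each difference of both genes. Depth limits *Agt*, *Agtr2* and *Mas1*, whose counts were at most 82, 11 and 17 per library.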
